A study of Arabidopsis thaliana with 12 samples.

Results

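The libraries titled GRF1 (here GRF1_OE) were set against the libraries titled GRF3 (here GRF3_OE), which gave 6 of the 12 messenger RNA libraries of a study of Arabidopsis thaliana, and all 28775 counted loci were described. GRF1_OE plants carried 35S:GRF1-GFP and GRF3_OE plants carried 35S:GRF3-GFP, with 3 libraries each. The other genotypes, also with 3 libraries each, were plants labelled grf1/grf2/grf3 (here grf123) and wild type (WT). All plants were of the Ws strain, grown on MS medium in randomized blocks and taken whole at 14 days. The study set out to find genes that GRF1 and GRF3 regulate, and the question here is where the overexpressors differ from each other.

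GRF1 and GRF3 are growth-regulating factors, plant transcription factors with a QLQ domain that binds GIF coactivators and a WRC domain that binds DNA. They are best known for raising cell proliferation and leaf size in Arabidopsis, and the small RNA miR396 pairs with the transcripts of most of the family. The 35S promoter comes from a plant virus and is active in most tissues, so a transgene behind it is expressed outside the cells that normally hold the factor. Counts per locus do not separate transgene from endogenous transcripts. The labels did not say whether each overexpressor is 1 line, whether plants were pooled, or at which hour they were harvested. The p-values below measure the spread between these libraries, which may be technical in part, since separate cultures or plants per library were not stated.

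Library depth was similar in both genotypes, with 5965816 to 9134491 gene counts in GRF1_OE and 6011082 to 8251858 in GRF3_OE. An 18S ribosomal RNA locus took 17.3 to 19.4% of the gene counts in GRF1_OE and 13.1 to 19.4% in GRF3_OE. Values are given as CPM, which are gene counts divided by library size, scaled with TMM factors. The summed CPM of 6 leaf and photosynthesis markers was 24879 to 27322 in GRF1_OE and 23905 to 28448 in GRF3_OE. That of 7 root markers was 925 to 1014 in GRF1_OE and 691 to 1033 in GRF3_OE, so both sets held leaf and root transcripts. Seed markers summed to at most 0.720 CPM in GRF1_OE and 0.688 CPM in GRF3_OE, with SESA3 and SESA4 at 0. Summed handling markers (touch and wounding genes) did not overlap, at 87.1 to 106 CPM in GRF1_OE and 119 to 149 CPM in GRF3_OE. WT replicate 3, with 2820223 gene counts, was the shallowest of the 12 libraries and touches the WT levels given for reference.

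In each overexpressor the gene named in the title was the raised one. GRF1 (AT2G22840, chr2:9728480-9731301, plus strand, TAIR10.1) had 117, 147 and 186 CPM in GRF1_OE and 8.95, 8.67 and 8.93 CPM in GRF3_OE. The GRF1_OE libraries varied among themselves yet all stood far above the GRF3_OE libraries, and GRF1 rose by 4.08 ± 0.16 (log2 change ± SE, as in all such values here, with edgeR adjusted p = 8.6e-14). GRF3 (AT2G36400, chr2:15270088-15273115, minus strand) had 29.1, 24.4 and 28.1 CPM in GRF1_OE and 215, 194 and 220 CPM in GRF3_OE. Its GRF3_OE libraries stood far above the GRF1_OE libraries, and GRF3 changed by -2.96 ± 0.14 (edgeR adjusted p = 1.1e-11). In the annotation another gene overlaps 19 of the 68 genes named by rule here, and the use of strand in counting was not stated, so reads there could belong to either gene. These are GRF1, GRF3, GRF9, GIF2, GIF3, FKF1, BBX8, LUX, AIR1, CSD1, PHS2, AS1, GUN4, YSL2, P5CS1, CHS, PAP17, BBX32 and AT3G12320.

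GRF2 was low in both overexpressors, near its level in grf123. GRF2 (AT4G37740, chr4:17725337-17727909, minus strand) had 1.28, 0.309 and 0.638 CPM in GRF1_OE and 0.942, 1.10 and 0.565 CPM in GRF3_OE, which is 3 to 8 counts per library. Its mean was 0.929 ± 0.253 CPM in grf123 and 11.1 ± 2.35 CPM in WT (SD, n = 3 each). Against WT, where edgeR called 21.8% of tested genes in GRF1_OE and 12.4% in GRF3_OE, it gave log2 changes of -4.03 for GRF1_OE (adjusted p = 4.4e-08) and -3.72 for GRF3_OE (adjusted p = 5.7e-07). The labels do not say whether the overexpressors carry any of the grf mutations, so these contrasts with WT cannot be read as an effect of the transgenes alone. Between the overexpressors GRF2 differed by -0.30 ± 0.52 and was not called (edgeR adjusted p = 0.92). The gene that each line did not target also had its own level. Against WT, edgeR gave GRF1 a log2 change of -0.92 in GRF3_OE (adjusted p = 0.0026) and -0.91 in grf123 (adjusted p = 0.0040). GRF1 averaged 8.85 ± 0.153 CPM in GRF3_OE, against 8.58 ± 1.25 CPM in grf123 and 17.1 ± 1.57 CPM in WT, and GRF3 averaged 27.2 ± 2.48 CPM in GRF1_OE, against 22.7 ± 2.62 CPM in grf123 and 22.5 ± 6.78 CPM in WT (SD, n = 3 each).

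**Figure D1:**
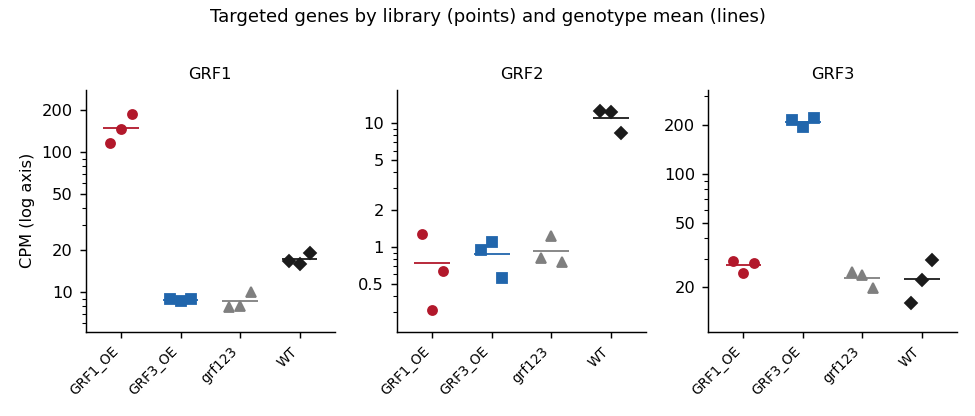
CPM of GRF1, GRF2 and GRF3 (log axis) in GRF1_OE, GRF3_OE, grf123 and WT; points are libraries and lines are genotype means. GRF1 stands highest in GRF1_OE and GRF3 in GRF3_OE, and GRF2 lies near 1 CPM in all genotypes but WT.

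Of the other GRF genes, GRF4, GRF5, GRF8 and GRF9 passed the filter on low counts, and none was called, with log2 changes between -0.59 and 0.58. The GIF genes encode the coactivators that the QLQ domain binds. GIF1, GIF2 and GIF3 differed by 0.19 ± 0.17, 0.14 ± 0.13 and 0.04 ± 0.26, and none was called (lowest edgeR adjusted p = 0.79). GRF1 and GRF3 both hold a match to miR396 in a coding exon. The mature small RNA and the matches in the RefSeq TAIR10.1 sequence are shown because the family is known as its target. Capitals mark the seed of the small RNA (bases 2 to 8) and the bases that pair with it.
miR396a (chr2:4142443-4142463, minus strand): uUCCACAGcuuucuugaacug
GRF1 (chr2:9729945-9729965, plus strand): cgttcaagaaagcCTGTGGAa
GRF2 (chr4:17726404-17726424, minus strand): cgttcaagaaagcCTGTGGAa
GRF3 (chr2:15271745-15271766, minus strand): ccgttcaagaaagcCTGTGGAa
GRF1 and GRF2 share the same 21 bases, and the GRF3 match spans 22 bases with the same pairing to the seed. Whether the transgenes keep these bases is not stated.

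Few loci were called different between the overexpressors, with GRF1 and GRF3 among them. A gene that was not called was not shown to be equal. Of 17938 genes tested with edgeR's quasi-likelihood test, 204 (1.14%) had an adjusted p under 0.05, of which 87 (0.485%) were higher and 117 (0.652%) lower in GRF1_OE. At an unadjusted p under 0.05 there were 1839. Called differences of at least 2-fold numbered 32 higher and 22 lower, so the larger differences lay more often above GRF3_OE and the smaller ones below it. The median log2 change was 0.84 among the 87 and -0.66 among the 117. CPM did not overlap between the 3 and 3 libraries for 203 of the 204, where 18.1% of all tested genes did not overlap (8.51% with GRF1_OE above, 9.62% with GRF3_OE above). The median log2 change of all tested genes was -0.005, and 48.9% were positive.

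**Figure D2:**
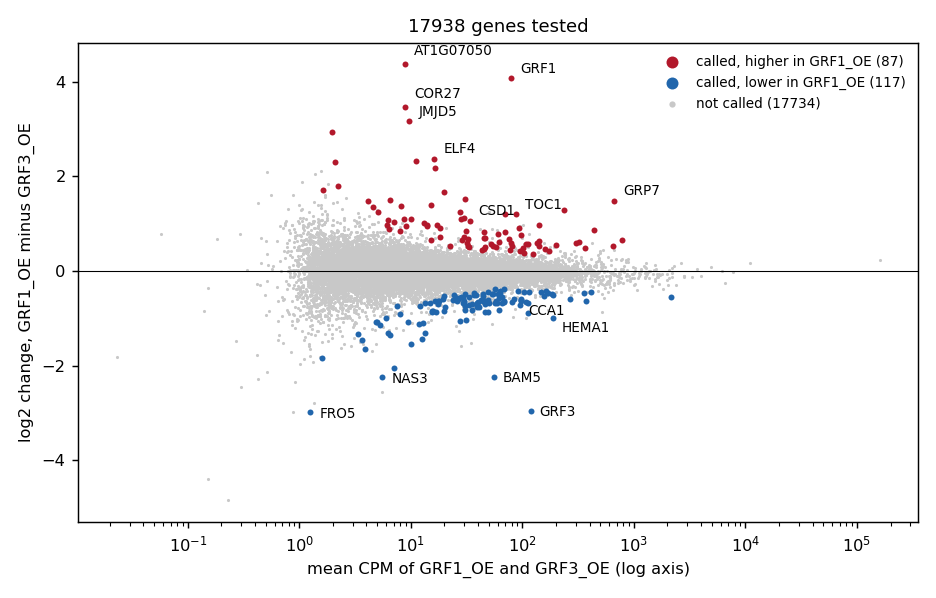
Log2 change of GRF1_OE minus GRF3_OE (vertical axis) against mean CPM of both genotypes (log axis) for all tested genes; red points are the 87 called higher, blue points the 117 called lower in GRF1_OE, grey points were not called. The furthest called points above 0 are AT1G07050, GRF1, COR27 and JMJD5, and the furthest below are FRO5, GRF3, BAM5 and NAS3.

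For most called genes WT lay nearer to GRF3_OE. On the scale of log2(CPM + 0.5), the WT mean was nearer to the GRF3_OE mean than to the GRF1_OE mean for 80 of the 87 genes called higher (92.0%) and 95 of the 117 called lower (81.2%). Among all tested genes the shares were 60.0% of those with a positive change and 59.4% of those with a negative one. The WT mean was below both overexpressors for 65 of the 87 and above both for 66 of the 117. The grf123 mean was nearer to GRF3_OE for 67 of the 87 (77.0%, where all tested genes gave 54.7%) and 71 of the 117 (60.7%, where all tested genes gave 52.4%). Selecting on the difference between the overexpressors shapes these counts, and they are given as a description.

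Clock genes were among the largest differences. The plant circadian clock is a loop in which the morning factors CCA1 and LHY repress evening genes through a DNA motif called the evening element, and evening proteins such as TOC1 and the evening complex of ELF3, ELF4 and LUX repress morning genes in turn. Among all tested genes, 0.485% were called higher and 0.652% lower in GRF1_OE. Of 13 evening clock genes, 8 were called higher in GRF1_OE and 0 lower, with a median log2 change of 1.11. Of 5 clock output genes, 3 were called higher. Of 13 morning clock genes, 3 were called lower and 0 higher, with a median of -0.46. Since transcripts of these genes cycle and the hour of harvest was not given, time of day cannot be told apart from level.

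COR27, a night-phased repressor of clock and cold genes, had 14.2, 17.4 and 17.1 CPM in GRF1_OE and 1.26, 1.65 and 1.47 CPM in GRF3_OE. All GRF1_OE libraries stood above all GRF3_OE libraries, the means differed 11.1-fold, and COR27 rose by 3.46 ± 0.24 (edgeR adjusted p = 1.5e-09). The mean was 1.13 CPM in grf123 and 0.425 CPM in WT. Against WT, edgeR gave 5.24 for GRF1_OE (adjusted p = 1.1e-10) and 1.79 for GRF3_OE (adjusted p = 0.017), so both overexpressors were above WT. JMJD5, an evening-phased histone demethylase of the clock, had 18.2, 19.0 and 14.8 CPM in GRF1_OE and 1.88, 2.34 and 1.58 CPM in GRF3_OE. It rose by 3.17 ± 0.24 (edgeR adjusted p = 5.0e-09), with 1.50 CPM in grf123 and 1.08 CPM in WT.

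GRP7 encodes a glycine-rich RNA-binding protein that feeds back on its own transcript under the clock. It had 1090, 973 and 849 CPM in GRF1_OE and 340, 379 and 323 CPM in GRF3_OE, and rose by 1.48 ± 0.13 (edgeR adjusted p = 1.2e-06). The other genotypes had means of 254 ± 54.0 CPM in grf123 and 110 ± 13.8 CPM in WT (SD, n = 3 each). Against WT, edgeR gave 3.13 for GRF1_OE (adjusted p = 3.2e-11) and 1.65 for GRF3_OE (adjusted p = 7.5e-07). It also gave 1.20 for grf123 (adjusted p = 2.1e-05), so both overexpressors and grf123 were above WT. AT4G33980, on the output list without a symbol in the annotation, had 16.9 to 20.4 CPM in GRF1_OE and 2.94 to 4.41 CPM in GRF3_OE, a rise of 2.32 ± 0.25 (edgeR adjusted p = 6.5e-06). GRP8, the close paralog of GRP7, stood at 332 CPM in GRF1_OE and 247 CPM in GRF3_OE and missed the threshold (0.42 ± 0.11, edgeR adjusted p = 0.050).

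All 3 evening complex genes were called, by unequal amounts. ELF4 had 27.0, 26.8 and 28.2 CPM in GRF1_OE and 4.71, 4.82 and 6.11 CPM in GRF3_OE, a rise of 2.37 ± 0.17 (edgeR adjusted p = 1.5e-09). LUX, the DNA-binding member, had 46.4, 40.0 and 37.6 CPM in GRF1_OE and 19.1, 20.1 and 17.5 CPM in GRF3_OE, a rise of 1.13 ± 0.18 (edgeR adjusted p = 0.0025). ELF3, the scaffold of the complex, was chosen here as a list member outside the naming rule and rose by 0.51 ± 0.12, with 53.4 to 56.5 CPM in GRF1_OE and 36.9 to 40.8 CPM in GRF3_OE (edgeR adjusted p = 0.021). The libraries of the genotypes did not overlap for any of the 3. The same held for 203 of the 204 called genes, and 8.51% of all tested genes had GRF1_OE above without overlap.

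Among the pseudo-response regulators, TOC1 had 125, 128 and 116 CPM in GRF1_OE and 60.4, 47.1 and 52.9 CPM in GRF3_OE, a rise of 1.20 ± 0.11 (edgeR adjusted p = 7.2e-08). Its GRF3_OE libraries lay close to the means of grf123 (49.2 CPM) and WT (44.9 CPM). PRR3, which protects TOC1 protein from degradation, rose by 1.11 ± 0.13 and PRR5, a repressor of morning genes, by 0.71 ± 0.13 (edgeR adjusted p = 1.7e-05 for PRR3 and 0.0052 for PRR5). FKF1, the blue-light receptor that times flowering through CONSTANS, had 51.3, 43.7 and 41.0 CPM in GRF1_OE and 15.5, 18.3 and 13.3 CPM in GRF3_OE, a rise of 1.53 ± 0.17 (edgeR adjusted p = 9.1e-06). Of the evening genes named by rule, GRF3_OE was called above WT for PRR3 (1.14), FKF1 (0.92) and ELF4 (0.77), with edgeR adjusted p = 0.00022, 0.0073 and 0.037. It was not called for JMJD5 (1.09), LUX (0.39) or TOC1 (0.28), with edgeR adjusted p = 0.077, 0.24 and 0.10. The list members not called between the overexpressors were GI, ZTL, LKP2, CHE and BOA. GI, the partner of FKF1, had 135 to 137 CPM in GRF1_OE and 109 to 119 CPM in GRF3_OE without overlap, a difference of 0.24 ± 0.09 that missed the threshold (edgeR adjusted p = 0.23). BOA, the paralog of LUX, differed by 1.56 ± 0.41 at 2.08 to 3.19 CPM in GRF1_OE and 0.678 to 1.10 CPM in GRF3_OE (edgeR adjusted p = 0.062).

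The called morning genes were lower in GRF1_OE, by smaller amounts. CCA1 had 80.2, 65.2 and 83.1 CPM in GRF1_OE and 119, 98.3 and 135 CPM in GRF3_OE, with a fall of 0.63 ± 0.14 (edgeR adjusted p = 0.024). RVE8, a MYB factor that activates evening genes, had 13.1, 9.87 and 13.4 CPM in GRF1_OE and 21.8, 18.5 and 24.8 CPM in GRF3_OE, and fell by 0.86 (SE 0.15, edgeR adjusted p = 0.0027). The third called member was AT3G12320, with a log2 change of -0.68. LHY, the paralog of CCA1, had 17.5 to 26.3 CPM in GRF1_OE and 26.3 to 40.6 CPM in GRF3_OE and was not called (-0.68 ± 0.20, edgeR adjusted p = 0.15). PRR9, a morning repressor, averaged 17.9 CPM in GRF1_OE and 29.3 CPM in GRF3_OE and was not called either (-0.71 ± 0.23, edgeR adjusted p = 0.23). With any 1 of the 6 libraries left out, 6 to 7 evening genes and 0 to 4 morning genes were past the threshold. ELF3 lost its call in all 6 repeats, with values from 0.48 to 0.55, and PRR5 without GRF3_OE replicate 1 or 3 (0.63 each). The call of CCA1 was lost without GRF1_OE replicate 1 (-0.67) or 2 (-0.53) and without GRF3_OE replicate 1 (-0.62) or 3 (-0.52), that of RVE8 without GRF1_OE replicate 2 (-0.71), and that of AT3G12320 without GRF1_OE replicate 2 (-0.61) or GRF3_OE replicate 3 (-0.57).

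**Figure D3:**
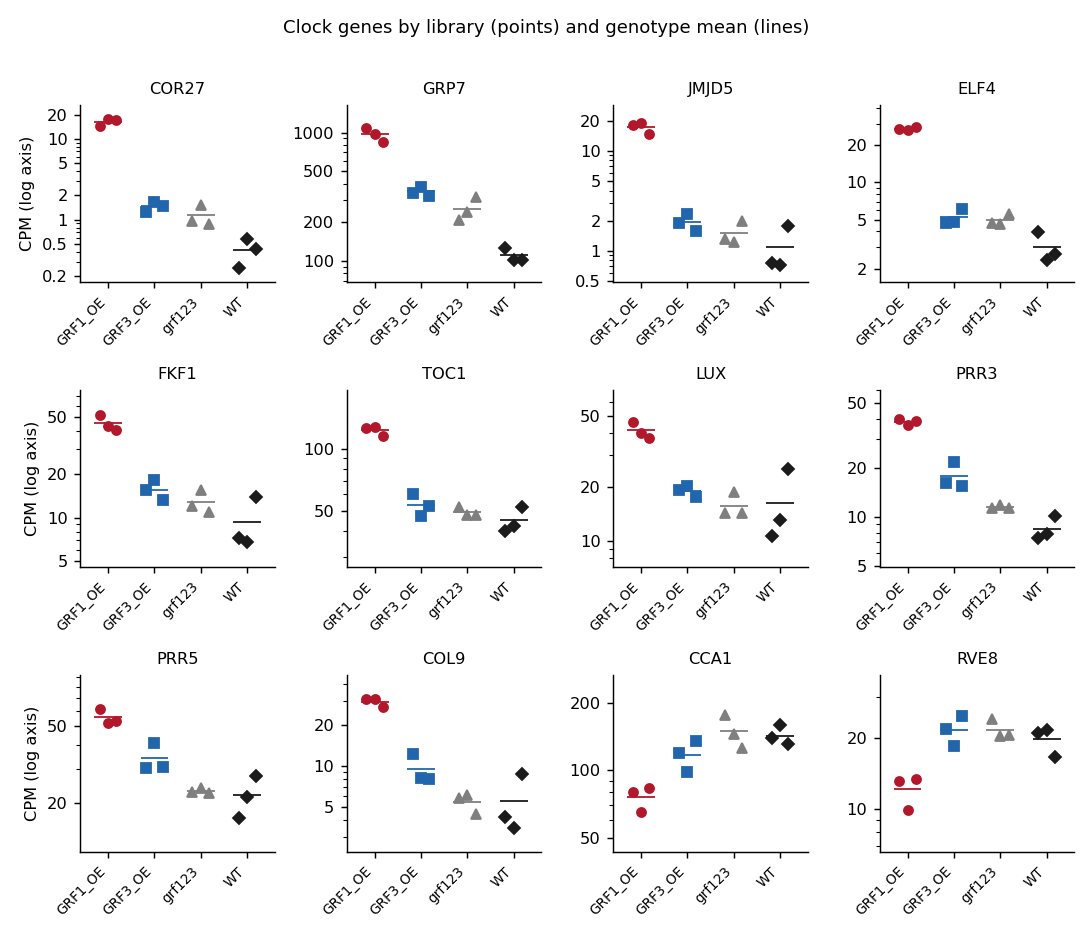
CPM of 10 clock, output and flowering-time genes called higher (COR27 to COL9) and 2 morning genes called lower (CCA1, RVE8) in GRF1_OE, on log axes; points are libraries in GRF1_OE, GRF3_OE, grf123 and WT, and lines are genotype means. In the first 10 panels all GRF1_OE libraries stand above all others, while GRF3_OE lies between 1.46 CPM (COR27) and 347 CPM (GRP7) on average.

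The photoperiod flowering list held 1 call. Of 10 photoperiod genes tested, COL9 alone was called (10%, where 1.14% of all tested genes were). TOE2, a flowering-time gene outside the list, was called higher too (0.50) and lost its call whichever of the 6 libraries was left out. COL9, a CONSTANS-like factor that delays flowering in Arabidopsis, had 31.2, 31.2 and 27.1 CPM in GRF1_OE and 12.2, 8.12 and 8.03 CPM in GRF3_OE, a rise of 1.67 ± 0.19 (edgeR adjusted p = 9.1e-06). CO, the activator of FT, had 1.77 CPM in GRF1_OE and 1.75 CPM in GRF3_OE on average. FT, the mobile flowering signal, had 4.64 to 9.57 CPM in GRF1_OE and 6.90 to 13.1 CPM in GRF3_OE, overlapping, and differed by -0.46 ± 0.33 (edgeR adjusted p = 0.72). Related B-box genes with a CCT domain were called as well, BBX8 with a rise of 1.40 ± 0.18 and BBX13 with one of 1.11 ± 0.19. The largest log2 change among the 204 was at AT1G07050, a CCT motif family gene with no symbol in the annotation, with 15.8, 18.2 and 16.4 CPM in GRF1_OE and 0.785, 0.964 and 0.678 CPM in GRF3_OE. It rose by 4.37 ± 0.27 (edgeR adjusted p = 9.3e-11), and its mean was 0.765 CPM in grf123 and 0.419 CPM in WT. Only 5 to 7 counts per library stand behind its GRF3_OE values, which limits the precision of the fold.

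The evening element was searched in the 300 bases before the annotated start of each gene, as AAAATATCT on either strand. It was present for 18 of the 87 genes called higher (20.7%), 2 of the 117 called lower (1.7%) and 2.9% of all tested genes. Among the 8 evening genes called higher, 4 had a match, and of the 5 not called, 1 did. On the clock output list 2 of the 3 called genes and 2 of the 2 not called had one. On the morning list 0 of the 3 called genes and 1 of the 10 not called did. ELF4, JMJD5, PRR3 and ELF3 were called with no match in this window. Of the 20 called genes with a match, CER1 and ABCI8 were the ones called lower. A motif bound by the phosphate regulator PHR1, GNATATNC, was in 4.6% of the genes called higher, 8.5% of those called lower and 6.5% of all tested. On the phosphate starvation list 1 of the 7 called genes and 5 of the 14 not called had it. The G-box CACGTG, bound by light and abscisic acid factors, was in 10.3%, 16.2% and 7.9% of the same sets.

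The windows of 3 called genes are shown to give the placement of the motif, in RefSeq TAIR10.1 sequence read 5′ to 3′ towards the gene, with evening elements on either strand in capitals. BBX8 has 3 matches in its window, which start 235, 199 and 18 bases before the gene. TOC1 has 1 match, 151 bases before the gene, and LUX 1, 53 bases before it.
BBX8 (chr5:19563833-19564132, minus strand): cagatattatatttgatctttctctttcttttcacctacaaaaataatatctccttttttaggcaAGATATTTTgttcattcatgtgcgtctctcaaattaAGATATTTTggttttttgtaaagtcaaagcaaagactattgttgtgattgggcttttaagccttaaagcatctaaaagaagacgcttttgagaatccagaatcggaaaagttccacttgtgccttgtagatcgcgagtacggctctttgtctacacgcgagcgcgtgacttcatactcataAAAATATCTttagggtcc
TOC1 (chr5:24674663-24674962, plus strand): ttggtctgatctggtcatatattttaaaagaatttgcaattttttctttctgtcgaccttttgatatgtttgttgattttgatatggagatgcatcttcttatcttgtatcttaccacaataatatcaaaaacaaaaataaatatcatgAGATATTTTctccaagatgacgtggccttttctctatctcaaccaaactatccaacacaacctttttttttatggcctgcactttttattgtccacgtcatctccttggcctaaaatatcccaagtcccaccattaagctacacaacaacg
LUX (chr3:17182742-17183041, plus strand): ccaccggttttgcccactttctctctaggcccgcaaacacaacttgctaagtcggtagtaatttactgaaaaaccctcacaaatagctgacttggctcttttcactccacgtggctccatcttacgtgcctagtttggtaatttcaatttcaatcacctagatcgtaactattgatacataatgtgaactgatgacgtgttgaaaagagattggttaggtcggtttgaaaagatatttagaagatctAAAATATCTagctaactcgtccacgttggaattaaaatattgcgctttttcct
A match of letters is a description of these windows and no evidence that a factor binds there.

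Of the phosphate starvation genes, those called were lower in GRF1_OE. Plants short of phosphate switch on scavenging and lipid remodelling through the factor PHR1, which SPX proteins hold back when phosphate is plentiful. Of 21 tested genes of this response, 7 were called lower and 0 higher (33.3%, where 1.14% of all tested genes were called). The median log2 change was -0.66, beside -0.005 for all tested genes. PAP17, an acid phosphatase, had 39.5, 40.4 and 53.3 CPM in GRF1_OE and 69.5, 74.2 and 90.1 CPM in GRF3_OE, and fell by 0.82 (SE 0.12, edgeR adjusted p = 0.00019). SQD2 and SQD1, which make the sulfolipid that replaces phospholipid, fell by 0.66 (edgeR adjusted p = 0.0015) and 0.53 (edgeR adjusted p = 0.015). SPX1 had 60.6, 42.8 and 48.3 CPM in GRF1_OE and 78.9, 72.4 and 90.6 CPM in GRF3_OE, and fell by 0.68 (SE 0.14, edgeR adjusted p = 0.014).

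For SPX1 and SQD2, GRF3_OE and not GRF1_OE was called against WT. SPX1 averaged 50.6 CPM in GRF1_OE, 80.6 CPM in GRF3_OE, 26.4 CPM in grf123 and 50.4 CPM in WT. Against WT, edgeR gave -0.01 for GRF1_OE (adjusted p = 0.97) and 0.67 for GRF3_OE (adjusted p = 0.0051), and -0.97 for grf123 (adjusted p = 0.00066). For SQD2 it gave 0.02 for GRF1_OE (adjusted p = 0.91), 0.69 for GRF3_OE (adjusted p = 0.00068) and -0.31 for grf123 (adjusted p = 0.14). PAP17 was on both sides of WT, at -0.34 for GRF1_OE (edgeR adjusted p = 0.049) and 0.48 for GRF3_OE (edgeR adjusted p = 0.0097). IPS1, a noncoding RNA that sequesters the small RNA miR399, had 4.64, 5.35 and 8.45 CPM in GRF1_OE and 13.3, 8.26 and 16.5 CPM in GRF3_OE. It fell by 1.07 (SE 0.24, edgeR adjusted p = 0.022) and was the 1 called gene whose libraries overlapped.

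The remaining called members were PLDZETA2, a phospholipase D (-0.67), and PHO1;H1, a phosphate exporter (-0.54). Both were chosen here as list members outside the naming rule, and both kept their call in 1 of the 6 repeats with a library left out, without GRF1_OE replicate 3 (-0.85 and -0.61). The regulators were not called: PHR1 differed by 0.11 (edgeR adjusted p = 0.80), and PHO2, which marks phosphate transporters for degradation, by -0.07 (edgeR adjusted p = 0.88). G3Pp1, a glycerol-3-phosphate permease that was not on the list, fell by 0.87 (SE 0.13, edgeR adjusted p = 0.00036). The count of 7 depended on single libraries and ran from 2, without GRF1_OE replicate 2 or GRF3_OE replicate 3, to 7. PAP17 and SQD2 stayed called whichever of the 6 libraries was left out. The calls of SPX1 (-0.57, -0.65 and -0.59) were lost without GRF1_OE replicate 2 or 3 or GRF3_OE replicate 3. Those of SQD1 (-0.52, -0.49 and -0.39) were lost without GRF1_OE replicate 1 or 2 or GRF3_OE replicate 3, and those of IPS1 (-0.92, -0.96, -1.04 and -0.82) without GRF1_OE replicate 1 or 2 or GRF3_OE replicate 1 or 3. IPS1 also lost its call with the 6 compared libraries alone (edgeR adjusted p = 0.056), and PLDZETA2 and PHO1;H1 lost theirs with upper-quartile factors (edgeR adjusted p = 0.062 and 0.060), the replicate block (0.052 and 0.057) and DESeq2 (0.10 and 0.090).

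**Figure D4:**
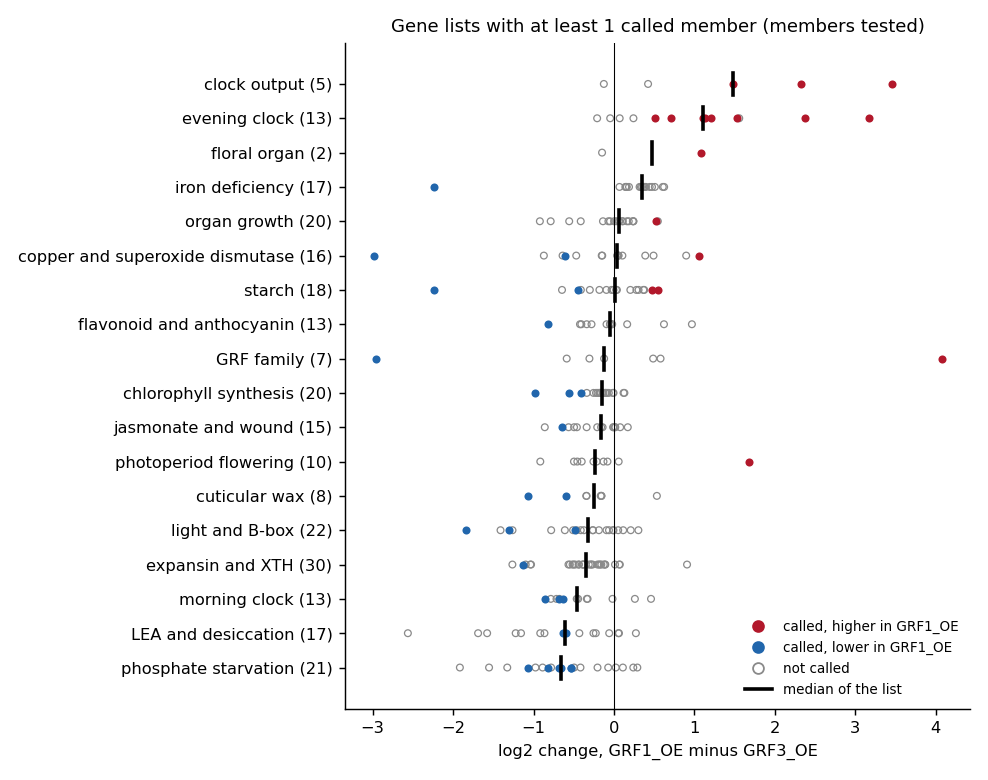
Log2 change of GRF1_OE minus GRF3_OE for the tested members of each gene list with at least 1 called member (number tested in parentheses); filled red points were called higher, filled blue points called lower, open points not called, and black bars are list medians. The clock output and evening lists lie furthest to the right, with medians of 1.48 and 1.11, and the phosphate list has the lowest median, -0.66.

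On the chlorophyll synthesis list the called genes were all lower in GRF1_OE. HCAR, a chlorophyll gene outside the list, was called higher and stayed called with any 1 of the 6 libraries left out (0.9095 to 1.045). HEMA1, glutamyl-tRNA reductase and the first committed step of the pathway, had 132, 123 and 123 CPM in GRF1_OE and 234, 244 and 270 CPM in GRF3_OE. The libraries of each genotype were tight, and HEMA1 fell by 0.98 (SE 0.12, edgeR adjusted p = 2.5e-05). Its means were 306 ± 55.2 CPM in grf123 and 406 ± 53.8 CPM in WT, so GRF1_OE was lowest and WT highest (SD, n = 3 each). CHLH, the large subunit of magnesium chelatase, fell by 0.56 and GUN4, which activates the chelatase, by 0.41 (edgeR adjusted p = 0.016 and 0.025). Of 20 tested genes on the list these 3 were called (15%), and the median log2 change was -0.15. Without any 1 of the 6 libraries the count was 1 to 3: HEMA1 kept its call each time, CHLH lost it without GRF1_OE replicate 1 (-0.49) or 2 (-0.57) or GRF3_OE replicate 3 (-0.46), and GUN4 without GRF1_OE replicate 1 (-0.34) or 2 (-0.42) or GRF3_OE replicate 2 (-0.43) or 3 (-0.35). None of 23 nuclear photosynthesis genes was called, where 1.14% of all tested genes were, and their median was -0.12. The factors GLK1 and GLK2, which activate this pathway, differed by -0.01 and -0.11 and were not called (edgeR adjusted p = 0.99 and 0.81).

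Several called genes handle metals. NAS3 makes nicotianamine, a metal chelator, and had 2.40, 1.44 and 2.07 CPM in GRF1_OE and 10.5, 8.67 and 8.25 CPM in GRF3_OE. It fell by 2.24 (SE 0.30, edgeR adjusted p = 0.00011), with 2.72 CPM in grf123 and 10.5 CPM in WT. YSL1, a transporter of metal-nicotianamine complexes, had 7.67, 7.61 and 9.09 CPM in GRF1_OE and 21.8, 14.3 and 15.8 CPM in GRF3_OE, and fell by 1.09 (SE 0.18, edgeR adjusted p = 0.0015). The iron deficiency list otherwise leaned the other way: 16 of its 17 tested members had a positive change, and none of these was called (median 0.35). Without 1 library that median ran from 0.19 to 0.49, and 5 of these genes were called with the replicate block and the 6 libraries alone. NEET, an iron-sulfur protein, fell by 2.06 at 1.65 to 4.64 CPM in GRF1_OE and 8.63 to 14.0 CPM in GRF3_OE (edgeR adjusted p = 0.019), and lost its call without GRF1_OE replicate 2 (-1.71) or 3 (-1.96) or GRF3_OE replicate 2 (-2.08) or 3 (-1.85).

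CSD1, the cytosolic copper/zinc superoxide dismutase, rose. It had 57.1, 35.3 and 44.7 CPM in GRF1_OE and 23.1, 19.1 and 23.0 CPM in GRF3_OE, with 66.3 CPM in grf123 and 17.6 CPM in WT, and a log2 change of 1.06 ± 0.15 (edgeR adjusted p = 0.00032). CSD2, its plastid counterpart, had 43.5 to 67.9 CPM in GRF1_OE and 24.6 to 35.6 CPM in GRF3_OE and was not called (0.90 ± 0.21, edgeR adjusted p = 0.080). FSD1, the iron dismutase, differed by -0.87 ± 0.23 and was not called either (edgeR adjusted p = 0.15). FRO5, a metal reductase with a close copy in FRO4, fell by 2.99 (SE 0.55, edgeR adjusted p = 0.0048) at 0.159 to 0.411 CPM in GRF1_OE and 1.92 to 2.82 CPM in GRF3_OE, a level at which reads shared between the copies leave the value uncertain. YSL2 fell by 0.61, and lost its call without GRF1_OE replicate 1 (-0.57) or GRF3_OE replicate 1 (-0.55) or 3 (-0.59).

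Starch genes were called in both directions. BAM5, a cytosolic beta-amylase, had 20.6, 17.0 and 20.9 CPM in GRF1_OE and 71.3, 120 and 81.9 CPM in GRF3_OE. It fell by 2.24 (SE 0.20, edgeR adjusted p = 2.5e-05), and GRF3_OE was the genotype that stood apart, since the means were 19.3 CPM in grf123 and 22.9 CPM in WT. Against WT, edgeR gave -0.28 for GRF1_OE (adjusted p = 0.38) and 1.95 for GRF3_OE (adjusted p = 0.00010). BAM1, a plastid beta-amylase, fell by 0.44, and PHS2, the cytosolic glucan phosphorylase, and PWD, which phosphorylates starch for its breakdown, rose by 0.54 and 0.47. BAM1 lost its call without GRF1_OE replicate 2 (-0.41) or 3 (-0.42) or GRF3_OE replicate 1 (-0.43) or 3 (-0.40), PHS2 without GRF3_OE replicate 1 (0.48) or 3 (0.46), and PWD without GRF1_OE replicate 2 (0.41) or 3 (0.45) or GRF3_OE replicate 1 (0.39) or 3 (0.44). Of the 18 tested starch genes 22.2% were called, where 1.14% of all tested genes were, and the list median was 0.01.

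**Figure D5:**
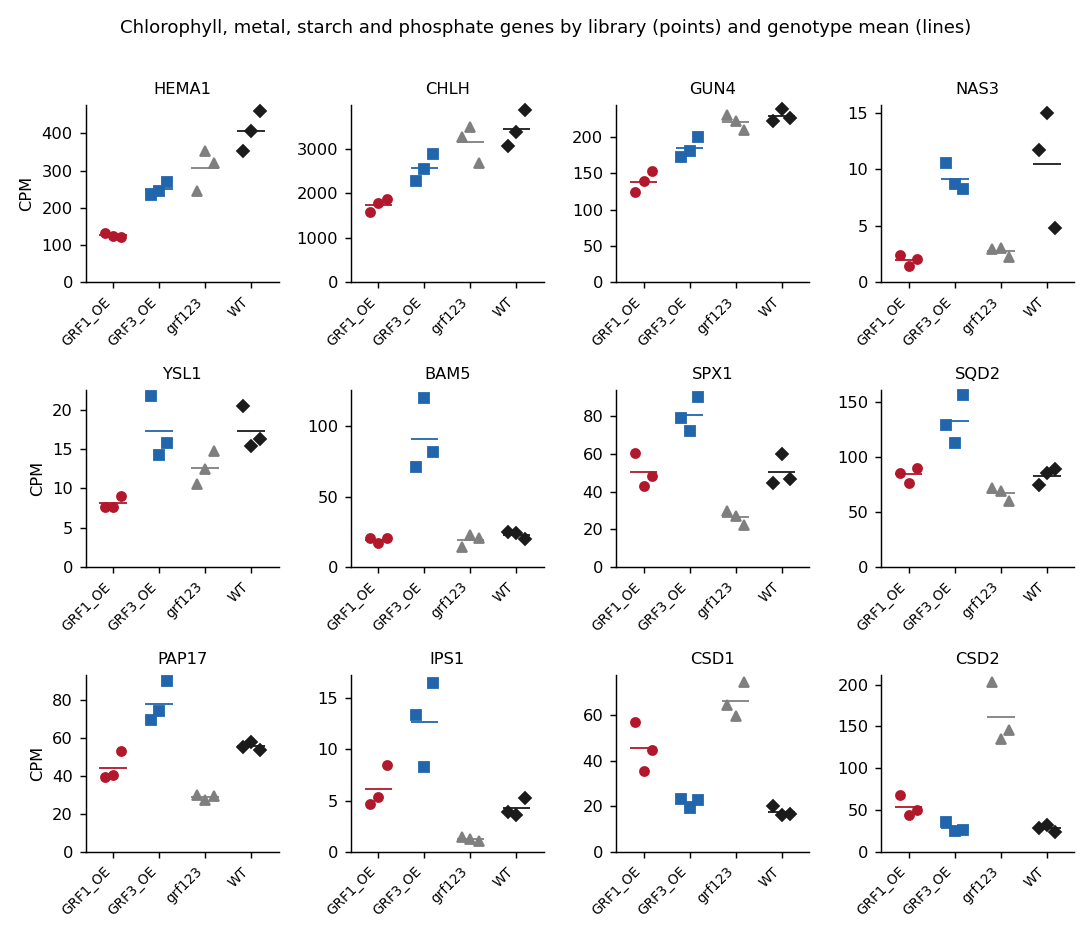
CPM of chlorophyll (HEMA1, CHLH, GUN4), metal (NAS3, YSL1, CSD1, CSD2), starch (BAM5) and phosphate (SPX1, SQD2, PAP17, IPS1) genes on linear axes from 0; points are libraries in GRF1_OE, GRF3_OE, grf123 and WT, and lines are genotype means. HEMA1 is lowest in GRF1_OE (126 CPM), BAM5 is highest in GRF3_OE (91.2 CPM), and NAS3 is low in GRF1_OE and grf123.

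Of 22 light and B-box genes tested, BBX32, ELIP1 and BBX28 were called lower and 0 higher, with a median of -0.32. That is 13.6% of the list, where 1.14% of all tested genes were called. The B-box genes BBX8 and BBX13, called higher, are not on this list. ELIP1, an early light-induced protein that guards against excess light, had 4.64, 2.47 and 3.83 CPM in GRF1_OE and 7.38, 9.36 and 9.38 CPM in GRF3_OE, and fell by 1.31 (SE 0.28, edgeR adjusted p = 0.014). BBX32, a B-box repressor of light signalling, fell by 1.83 at 0.411 to 0.957 CPM in GRF1_OE and 1.79 to 2.94 CPM in GRF3_OE (edgeR adjusted p = 0.028). HY5, the main activator of light-induced genes, differed by -0.06 (edgeR adjusted p = 0.97). All 3 calls were lost in some repeats with 1 library left out, in which ELIP1 ran from -1.52 to -1.04, BBX32 from -2.09 to -1.48 and BBX28 from -0.57 to -0.41. The libraries concerned were GRF1_OE replicate 2 and GRF3_OE replicates 2 and 3 for ELIP1, GRF1_OE replicates 1 and 2 and GRF3_OE replicates 1 and 3 for BBX32, and GRF1_OE replicates 2 and 3 and GRF3_OE replicates 2 and 3 for BBX28.

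The desiccation and wax lists had a small number of calls. RD22, a dehydration-responsive gene, had 206, 226 and 214 CPM in GRF1_OE and 304, 303 and 366 CPM in GRF3_OE, and fell by 0.59 (SE 0.11, edgeR adjusted p = 0.0025). Its mean was 438 CPM in grf123 and 453 CPM in WT, above both overexpressors. P5CS1, which makes proline under drought, fell by 0.64 and lost its call without GRF1_OE replicate 1 (-0.63) or 2 (-0.62) or GRF3_OE replicate 3 (-0.49). Of 17 genes tested on the desiccation list these were the 2 called, and the median was -0.61, or -0.23 without GRF3_OE replicate 3. Outside the list, RD20 was called lower and AT1G54410, a dehydrin family gene, higher. With 1 library left out, RD20 kept its call in 3 of the 6 repeats and AT1G54410 in all 6. None of the 13 abscisic acid core genes tested was called, where 1.14% of all tested genes were. CER1, which makes wax alkanes, fell by 0.60 and lost its call without GRF3_OE replicate 3 (-0.53). CER4, which makes wax alcohols, fell by 1.07 and kept its call only without GRF1_OE replicate 2 among the 6 repeats, where it ran from -1.58 to -0.82 over all of them. It also lost the call with upper-quartile factors (edgeR adjusted p = 0.056), with the block and length trend removed (0.052) and with DESeq2 (0.062).

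Of the expansin and XTH genes, which loosen and rejoin the wall, XTH18 was called. XTH18, a xyloglucan enzyme, had 8.79, 7.40 and 6.06 CPM in GRF1_OE and 17.4, 16.2 and 15.2 CPM in GRF3_OE, and fell by 1.13 (SE 0.21, edgeR adjusted p = 0.0040). Of 30 expansin and XTH genes tested, 26 had a negative change (median -0.34), where 48.9% of all tested genes had a positive one. XTH18 was the 1 called gene among the 30 (3.33%, where 1.14% of all tested genes were called). The count was 3 without GRF3_OE replicate 3, 2 without GRF3_OE replicate 2, 2 with DESeq2 or the replicate block, and 7 with the block and the 6 libraries alone. Touch genes, among them another XTH, moved in the same direction without a call: all 9 tested members of the touch and handling list were negative, with a median of -0.42, and the part of handling in the XTH result was not tested. Outside that list, FLA13, an arabinogalactan protein, had 34.7, 26.8 and 42.6 CPM in GRF1_OE and 60.0, 72.6 and 56.6 CPM in GRF3_OE, and fell by 0.87 (SE 0.16, edgeR adjusted p = 0.0086), and its call was lost without GRF1_OE replicate 1 (-0.88). EXT13, an extensin-like gene, fell by 1.47 at means of 1.97 CPM in GRF1_OE and 5.34 CPM in GRF3_OE, and lost its call without GRF1_OE replicate 1 (-1.43) or 2 (-1.12) or GRF3_OE replicate 1 (-1.08) or 2 (-1.58), and with upper-quartile factors (edgeR adjusted p = 0.054). Summed root hair markers were 9.75 to 11.6 CPM in GRF1_OE and 13.5 to 28.2 CPM in GRF3_OE, without overlap, and their part in the EXT13 result was not tested. In whole plants, fewer cells of a type and less RNA per cell cannot be told apart.

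Growth genes, the readout for which GRFs are best known, held 1 call between the overexpressors. None of 24 cell cycle genes was called, with log2 changes from -0.45 to 0.51 and a median of 0.01. Of 20 organ growth genes, AS1 was called (5%). Among all tested genes 1.14% were called, so counts this low in lists of this length do not set growth genes apart. AS1, a MYB factor of leaf patterning, had 73.1, 60.6 and 60.9 CPM in GRF1_OE and 45.2, 47.2 and 43.2 CPM in GRF3_OE, and rose by 0.52 (SE 0.11, edgeR adjusted p = 0.013). The call was lost without GRF1_OE replicate 1 (0.43) or GRF3_OE replicate 1 (0.52) or 3 (0.49). The growth factor gene ANT, active in young organs, differed by 0.23 (edgeR adjusted p = 0.70), and TCP4, a factor that ends leaf proliferation, by 0.00 (edgeR adjusted p = 1.0). PI, a floral organ identity gene, rose by 1.09 ± 0.26 at 7.81 to 9.05 CPM in GRF1_OE and 3.14 to 5.23 CPM in GRF3_OE (edgeR adjusted p = 0.035). Summed floral markers overlapped, at 20.3 to 25.8 CPM in GRF1_OE and 19.6 to 24.5 CPM in GRF3_OE. The call of PI held in 1 of the 6 repeats with a library left out, without GRF3_OE replicate 2, with values from 0.96 to 1.33, and was lost with DESeq2 (adjusted p = 0.057).

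Other large differences stood outside these groups. SULTR3;1, a plastid sulfate transporter, had 15.5, 23.2 and 22.2 CPM in GRF1_OE and 40.8, 37.7 and 46.8 CPM in GRF3_OE, and fell by 1.03 (SE 0.13, edgeR adjusted p = 2.5e-05). ENH1, a rubredoxin family protein, fell by 1.05 (SE 0.15, edgeR adjusted p = 0.00032), with 16.9 to 19.2 CPM in GRF1_OE and 32.8 to 43.9 CPM in GRF3_OE. AT1G51820, a leucine-rich repeat kinase, fell by 1.54 (SE 0.24, edgeR adjusted p = 0.0010), with 4.16 to 6.22 CPM in GRF1_OE and 13.5 to 15.9 CPM in GRF3_OE. AT2G36885, annotated as a translation initiation factor, fell by 1.36, and AT5G35940, a mannose-binding lectin, rose by 2.94 ± 0.48 at 3.04 to 3.91 CPM in GRF1_OE and 0.138 to 0.678 CPM in GRF3_OE. WNK9, a kinase, rose by 1.10 and lost its call without GRF1_OE replicate 1 (0.88). AIR1 rose by 1.24 (edgeR adjusted p = 0.032), but it has near-identical neighbours, its value is uncertain for that reason, and it lost its call without GRF1_OE replicate 1 (1.11) or 2 (1.27) or GRF3_OE replicate 1 (1.22) or 2 (1.05), and with no filter (edgeR adjusted p = 0.051).

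Single calls were made in 2 more lists. CHS, chalcone synthase at the entry to flavonoids, fell by 0.82 (SE 0.18, edgeR adjusted p = 0.031), and lost its call whichever of the 6 libraries was left out, with values from -0.92 to -0.77, and with upper-quartile factors (edgeR adjusted p = 0.058). CORI3, a jasmonate-responsive gene, had 49.2, 44.1 and 42.1 CPM in GRF1_OE and 60.4, 83.7 and 66.9 CPM in GRF3_OE, fell by 0.64 (SE 0.12, edgeR adjusted p = 0.0031) and kept its call in all 6 repeats. In all, 41 lists held 515 tested genes, 47 of which were called, and 23 lists held no called gene. The lists without a call covered glucosinolates, auxin, gibberellin, brassinosteroid, cytokinin, salicylic acid, nitrate, cold, lignin, xylem and heat shock genes, among others. With 1.14% of all tested genes called, lists of this length are likely to hold no call.

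Called genes were spread over the genome. Between 0.986% and 1.29% of the tested genes on each of the 5 chromosomes were called. Of 121 windows of 1 Mb, 34 held none and the fullest held 6, on chromosome 2. Neighbouring called genes formed 3 pairs, each changed in 1 direction, namely CSLB03 with CSLB04, CYP705A5 with CYP708A2, and PRR3 with TOE2. Log2 changes had a Spearman correlation of -0.07 with exonic length across 17924 genes, which are not independent replicates.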

How the data were processed

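The deposited values were raw counts of reads per locus, which the authors made with Trimmomatic, TopHat2 2.0.14 and HTSeq on TAIR10, per the submitters' processing notes, which also name DESeq2. No tool settings and no use of strand were given in the sources used here, and libraries were made from messenger RNA with a NEB kit, per the labels' protocols. Rows naming no gene were left out and held 62.7 to 65.8% of the counts in GRF1_OE and 57.6 to 65.2% in GRF3_OE. Most of this was reads without a unique alignment, at 60.4 to 63.6% of the counts in GRF1_OE and 54.4 to 62.8% in GRF3_OE. Of uniquely aligned reads, 4.08 to 5.11% lay outside genes in these libraries. Of 28775 loci, 28009 (97.3%) matched a RefSeq TAIR10.1 locus, which gave symbols and positions. Loci without a symbol there are given by locus. The sequence of 1 further promoter window is not reported here.

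Counts were fitted with edgeR 4.0.16 (R 4.3.3, limma 3.58.1) by the quasi-likelihood test with TMM factors over all 12 libraries, with genotype as the only term. Genes passed filterByExpr (minimum count 10, minimum total 15), and p-values were adjusted by Benjamini-Hochberg, with a threshold of 0.05. The fit had 8 residual degrees of freedom. An exact permutation test of 1 gene, 3 libraries against 3, cannot give a two-sided p below 0.1, so none was used. The script was tested on simulated data. No replicate pair agreed within sampling noise.

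Genes were named by rule: the GRF and GIF genes, up to 15 called genes per direction with a symbol, non-overlapping libraries and at least 5 CPM in the higher genotype, up to 5 called members per list, and 3 loci without a symbol per direction. Other genes in the text are list members or were chosen after their values were seen. The libraries compared, the gene lists and the tests were chosen with earlier results of these data known. Alternatives were RLE and upper-quartile factors, other filters, the 6 libraries alone, a replicate block, a removed length trend, each library left out, and DESeq2 1.42.0.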

Additional observations from a re-analysis of the deposited data

How the results depend on the processing

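The 204 calls (87 higher, 117 lower) became 408 (159 higher, 249 lower) with the 6 compared libraries alone, and 200 of the 204 were among them. Without any 1 library, 106 to 181 genes were called, 51 to 75 higher and 53 to 107 lower, and 72 of the 204 were called in all 6 repeats and 19 in none. RLE factors gave 206, upper-quartile factors 207, a filter of 1 CPM in 3 libraries 206, no filter 276, a removed length trend 222 and DESeq2 235. Libraries with the same replicate number had correlations of deviations of 0.011, -0.020 and -0.006 across genes. These values cannot exclude a block that acts on some genes, and the labels do not say whether the replicate numbers are the blocks. With the replicate block 228 genes were called, 245 with the length trend removed as well, and 553 (196 higher, 357 lower) with the 6 libraries alone. The cause of these differences was not tested. Of the genes named by rule, 60 were called, and none changed sign. Under 16 settings, 32 of them kept their call wherever an adjusted p was given. DESeq2 gave none for AT5G35940 and FRO5, which are among the 32. Uncalled genes did. With 1 library left out GRF2 ran from -0.92 to 0.17, GRF5 from -0.10 to 0.74 and GIF3 from -0.14 to 0.20 (-0.11 without GRF3_OE replicate 1), each with the turned sign without GRF1_OE replicate 2. Evening clock calls numbered 8 to 9 in the settings that left out no single library (2 of which used the 6 compared libraries alone), morning clock calls 3 to 10 and phosphate calls 5 to 11. Depth limits genes such as GRF2 and FRO5, with few counts per library.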

Other observations

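Outside the lists, several called genes kept their call whichever of the 6 libraries was left out. They were chosen after their values were seen. AT2G33830, a dormancy and auxin associated family gene, had 372, 329 and 304 CPM in GRF1_OE and 146, 116 and 148 CPM in GRF3_OE, and rose by 1.29 ± 0.19 (edgeR adjusted p = 0.0051). MT2A, a metallothionein that binds metals, had 430, 382 and 363 CPM in GRF1_OE and 244, 246 and 274 CPM in GRF3_OE, and rose by 0.62 ± 0.10 (edgeR adjusted p = 0.0010). ABF1, a factor that acts on abscisic acid responsive promoters, had 34.2, 41.2 and 35.6 CPM in GRF1_OE and 25.1, 20.1 and 22.3 CPM in GRF3_OE, and rose by 0.73 ± 0.12 (edgeR adjusted p = 0.0011). All 3 had means in WT below both overexpressors, at 93.8 CPM for AT2G33830, 167 CPM for MT2A and 16.8 CPM for ABF1.

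DIN11, a dark-inducible oxygenase, had 14.9, 18.9 and 19.1 CPM in GRF1_OE and 9.10, 9.23 and 8.03 CPM in GRF3_OE, against 1.68 CPM in grf123 and 3.09 CPM in WT, and rose by 1.01 ± 0.18 (edgeR adjusted p = 0.0029). PAP10, a purple acid phosphatase, fell by 0.71 (SE 0.14, edgeR adjusted p = 0.010), with 21.6, 31.2 and 35.6 CPM in GRF1_OE and 46.6, 51.5 and 46.7 CPM in GRF3_OE. CYP705A5 and CYP708A2, neighbours on chromosome 5 that act in thalianol metabolism in Arabidopsis, rose by 0.97 ± 0.24 and 0.85 ± 0.21 (edgeR adjusted p = 0.043 and 0.039). Both lost their call in all 6 repeats, with values from 0.86 to 1.03 for CYP705A5 and 0.74 to 0.95 for CYP708A2.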
